A study of Mus musculus with 16 samples.

Results

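The S score measures, cell by cell, how strongly the genes of the DNA synthesis phase are expressed, and is described here across the cell types of 16 mouse tumors. It was taken as deposited, from a table of 163343 cells that holds measures of whole cells and no expression of single genes. A cell was counted as clearly positive where its S score lay above 0.1, and 19151 of the 163343 cells (11.7%) did so. These were kept apart from the 36619 cells (22.4%) that the table calls S in its column of cell cycle phases.

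The study asked how truncating mutations of a mitochondrial gene in cancer cells go with the state of the tumor and its immune infiltrate. B78 cells, a mouse melanoma line without pigment, were grown under the skin of male C57/BL6 mice (8-11 weeks), and fragments of the tumors were profiled by droplet single-cell RNA sequencing. The control group, WT, had 7 tumors of the B78 control. The groups mt.11944 60%, mt.12436 60% and mt.12436 80% had 3 tumors each, from B78 lines in which a base editor had placed a premature stop in mt-Nd5, a subunit of respiratory complex I. The number after mt. is the edited position of the mitochondrial genome, and the percentage is the share of mitochondrial genomes with the edit. No group received a further treatment according to the labels. The tumors of a group came from a single edited line, so the spread between tumors does not include the spread between independently edited lines. The immune and stromal cells of the tumors came from the mice, not from the edited lines.

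In S phase a cell copies its genome once, and for this it raises the genes of the replication machinery, such as Pcna, the clamp that holds DNA polymerase, the Mcm helicase subunits that open the double helix, and the enzymes that supply nucleotides. A set of such genes, averaged and set against control genes of like abundance, gives the S score, and a companion set of mitotic genes gives the G2M score. Tumor cells and activated lymphocytes are known for active cycling, resident macrophages can divide in tissue, and neutrophils leave the bone marrow after their last division. Neutrophils were therefore taken as the class that shows the background of the score.

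Tumors held 6371 to 13448 cells, with medians of 3130.5 to 7527.5 UMIs (counted RNA molecules) per cell. The table puts WT tumors 1, 2 and 3 and the mt.11944 60% tumors in the first batch, WT 4, 5 and 7 and the mt.12436 60% tumors in the second, and WT 6 and the mt.12436 80% tumors in the third, which is named after that group. Of all cells, 6591 (4.04%) carried a droplet barcode found in another library too, with 6 to 66 barcodes shared by each of the 120 pairs of libraries. Of these cells 12.02% had an S score above 0.1. The marker genes of the classes could not be checked without gene values. By the ploidy call in the table, 98.4% of the cells in the class Cancer cells were aneuploid, as were 0.446% of Macrophages and 0.113% of Neutrophils. The call was also given to 29.1% of the class Fibroblast, 16.8% of endothelial cells and 14.4% of erythroid cells. Ploidy and the epithelial score were among the criteria by which the study named malignant cells, so the value for cancer cells restates their label and is no check of it.

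The call of S in the table was a weak one in most cells. The phase followed a simple rule in all 163343 cells, G1 where neither score is above 0 and otherwise the phase of the higher score. Of the cells called S, 65.9% (24142 cells) had an S score of 0.1 or less, and 48.2% had 0.05 or less, with a median of 0.0534. The clearly positive cells had a median of 0.236 and reached 0.941, while the lowest score of any cell was -0.204. Of the positive cells 65.2% (12477) were called S and 34.8% (6674) G2M, because their G2M score was higher still, and 0 were called G1. Both scores exceeded 0.1 in 10720 cells, 56.0% of the S-positive and 57.4% of the G2M-positive cells. Over all cells the scores had a Pearson correlation of 0.497, a description of cells that share libraries and depth. The scores ran on across the threshold without a gap. Just outside it 1227 cells scored between 0.09 and 0.1, with medians of 5583 UMIs and a G2M score of 0.00910. Just inside it 1088 cells scored up to 0.11, with medians of 7347 UMIs and a G2M score of 0.0219.

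The classes differed far more in clearly positive cells than in calls of S. CD8 T cells, the cytotoxic lymphocytes, led with 36.1% of their 1804 cells above 0.1 (95% Clopper-Pearson interval 33.9 to 38.4, counting error only, as for all such intervals). Fibroblast-labelled cells and cancer cells followed at 18.9% each (fibroblast-labelled cells at 21.6% without mt.11944 60% tumor 1, which held 1944 of the 6283), and macrophages, the tissue phagocytes, stood at 13.3%. At the other end monocytes, which circulate and give rise to macrophages, had 1.72% (1.60 to 1.85) above 0.1, and neutrophils 1.30% (1.07 to 1.56). Over the 13 classes with at least 500 cells the share above 0.1 spanned 27.8-fold and the share called S 1.98-fold, from 19.3% in dendritic cells (DC) to 38.2% in CD8 T cells. Neutrophils were called S in 20.1% of cells and cancer cells in 20.3%, although their shares above 0.1 were 1.30% and 18.9%. In cancer and CD8 T cells both measures came out close, but they did not count the same cells. Of their positive cells 41.2% and 41.1% were called G2M, while 9.17% and 16.9% of all their cells were called S without exceeding 0.1.

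**Figure D1:**
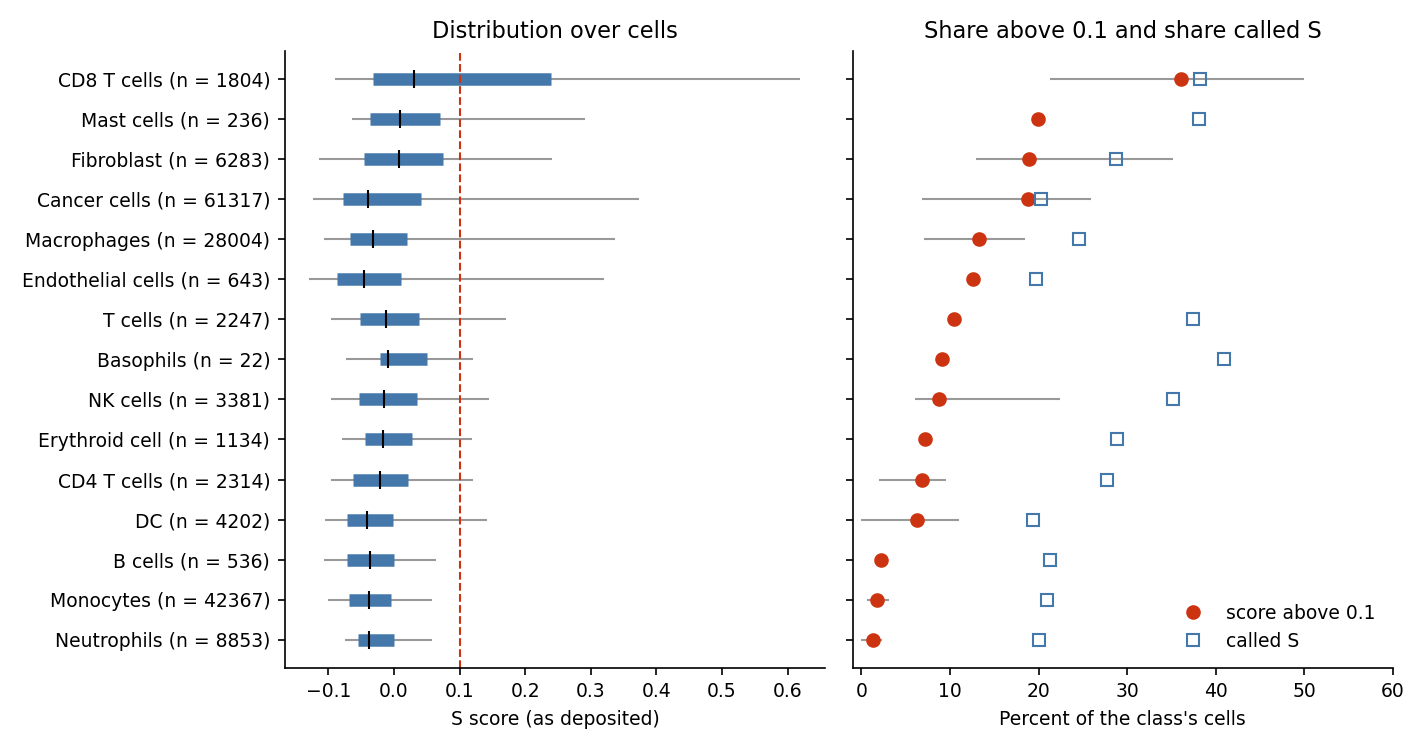
Left, S score by class (bar, middle 50% of cells; thin line, 5th to 95th percentile; tick, median; dashed line, 0.1). Right, percent of cells above 0.1 (filled) and called S (open), with the range of the share above 0.1 over the 16 tumors as a line where each tumor held 20 or more such cells. Neutrophils and cancer cells are called S alike, at 20.1% and 20.3%, and lie far apart above 0.1.

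The lymphoid classes outside CD8 T cells had many weak calls. NK cells, innate killer lymphocytes, were called S in 35.2% of cells and exceeded 0.1 in 8.73%. The class named only T cells was called S in 37.4% and exceeded 0.1 in 10.5%, and CD4 T cells, the helper lymphocytes, in 27.8% and 6.87%. The positive cells of these classes were seldom called G2M: 2.71% of the positive NK cells, 0.851% of the positive T cells and 5.66% of the positive CD4 T cells. Both scores exceeded 0.1 in 0.887% of all NK cells, 1.02% of all cells of the class T cells and 1.21% of all CD4 T cells. Their positive cells also lay closer to the threshold, with median S scores of 0.156, 0.165 and 0.146, against 0.368 in CD8 T cells, 0.271 in macrophages and 0.251 in cancer cells. In B cells, the antibody-forming lineage, 2.24% of 536 cells exceeded 0.1 and 21.3% were called S.

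Of the smaller classes, mast cells, tissue granulocytes of allergy, exceeded 0.1 in 47 of 236 cells, 19.9% (15.02 to 25.6). Endothelial cells, which line vessels, did so in 12.6% of 643 cells, erythroid cells in 7.14% of 1134, and DC, which present antigen, in 6.28% of 4202. Basophils gave 2 of 22 cells (9.09%, 1.12 to 29.2), too few to place the class. Cancer cells supplied 60.4% of all positive cells, macrophages 19.5%, fibroblast-labelled cells 6.20%, monocytes 3.81% and CD8 T cells 3.40%. Monocytes, at 25.9% of all cells, supplied 24.3% of the cells called S.

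Within the classes the positive cells were gathered in few clusters. The clusters were made from the expression of these same cells, so the differences between them are descriptions without a test. In 5 of 39 clusters more than 50% of cells exceeded 0.1, and these clusters held 62.9% of the positive cells among 9.65% of all cells. In 13 clusters the share was over 10%, and in 20 it was under 5%.

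Cancer cells were split into 11 clusters, of which clusters 11, 14, 16 and 27 carried the S score. Together these held 26.4% of the cancer cells and 90.9% of the positive ones, with 64.9% of their cells above 0.1. Cluster 14 had 86.9% of 4918 cells above 0.1 and 99.2% with a G2M score above 0.1, and 63.8% of its positive cells were called G2M. In cluster 11 the S score was the more frequent of both: 65.9% of 5856 cells exceeded 0.1 for S and 22.0% for G2M. For both scores 16.5% of its cells exceeded 0.1, and its share for G2M was near the 18.6% of all cancer cells. Cluster 16 was the reverse, with 38.99% above 0.1 for S and 92.9% for G2M, so that 86.5% of its positive cells were called G2M. Cluster 27, of 1072 cells, had 64.0% and 93.8%. Over the 16 tumors the share above 0.1 for S was 76.7% to 97.2% in cluster 14, 48.3% to 77.8% in cluster 11, 25.6% to 56.9% in cluster 16 and 51.7% to 100% in cluster 27, where both tumors at 100% held 6 such cells each.

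The other 7 cancer clusters were nearly free of positive cells, with 2.32% above 0.1, yet 13.02% of their cells were called S. Cluster 9 had 6.53% above 0.1, cluster 13 had 4.33%, cluster 28 had 2.78% and cluster 8 had 1.67%. Clusters 12 (1.43%), 10 (1.17%) and 2 (0.317%) were near or under the neutrophil background of 1.30%, at medians of 7849.5 to 12425.5 UMIs per cell against 1372 in neutrophils. Cluster 2, the largest cancer cluster with 11364 cells, had the lowest median S score of any cluster, -0.0751.

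**Figure D2:**
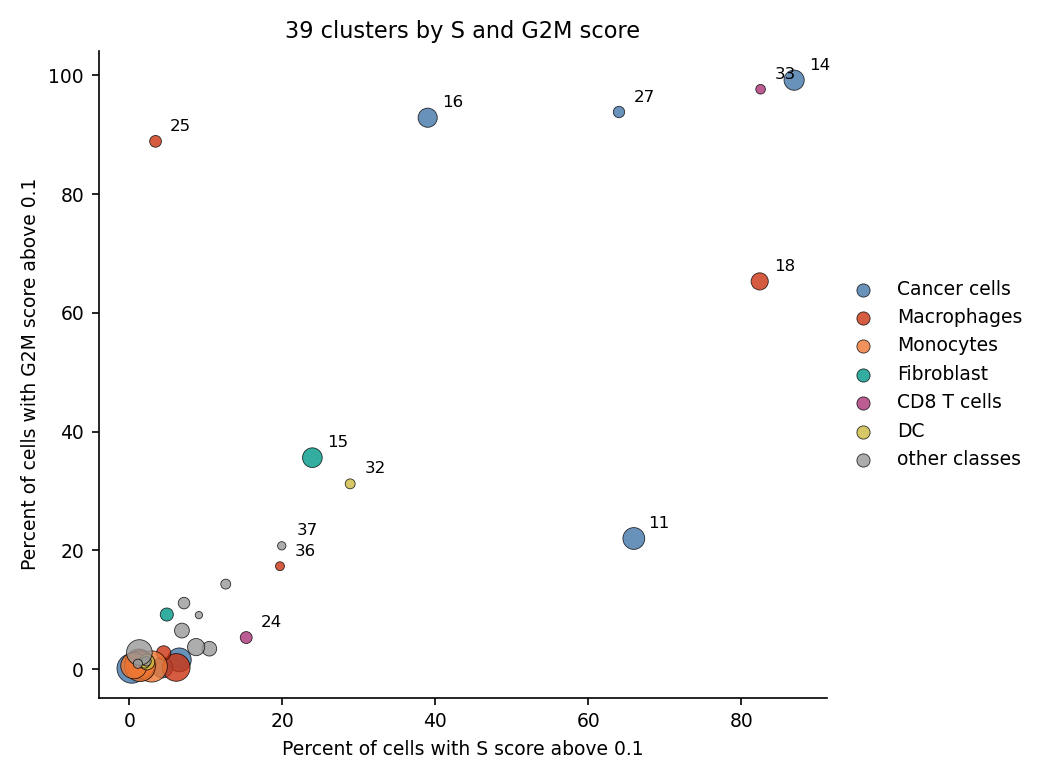
Each point is 1 of 39 clusters, placed by the percent of its cells with an S score (x axis) and a G2M score (y axis) above 0.1, with its area rising with its number of cells. Cancer clusters 14 and 27, macrophage cluster 18 and CD8 cluster 33 are high in both. Cancer cluster 11 is high in S, with 22.0% of cells above 0.1 for G2M, and macrophage cluster 25 is high in G2M alone.

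The host classes showed the same gathering. Macrophage cluster 18 had 82.4% of 3355 cells above 0.1 (71.6% to 96.7% over tumors) and 65.3% above 0.1 for G2M, and the other macrophages together had 3.90%. Macrophage cluster 25 had 88.9% of 1198 cells above 0.1 for G2M and 3.42% for S. Macrophage cluster 36 had 19.7% of 381 cells above 0.1 for S, but 26.0% of its cells were called aneuploid, against 0.446% of all macrophages. Whether its label holds could not be settled without gene values. CD8 T cells fell into cluster 33, with 82.5% of 560 cells above 0.1 and 97.7% for G2M, and cluster 24, with 15.3% of 1244 and 5.31% for G2M. DC cluster 32 had 28.9% of 641 cells above 0.1, against 2.22% in the other DC. In cluster 32 the median score of all cells was -0.0182 and that of the positive cells 0.326. Of the monocyte clusters, cluster 0 was highest at 2.92%, and of the neutrophil clusters, cluster 7 at 1.31%. Clusters 37 (mast cells), 31 (endothelial cells) and 21 (T cells) are each the whole of their class.

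The class Fibroblast was of mixed kind by the measures in the table. Its cluster 15, with 23.9% of 4628 cells above 0.1 for S and 35.6% for G2M, had a median of 1287 UMIs, a ribosomal percentage of 27.7 and 31.1% aneuploid cells. Of these cells 1714 came from mt.11944 60% tumor 1, with a median of 935 UMIs and 13.8% above 0.1, and without that tumor the cluster had a median of 3186 UMIs and 29.9% above 0.1. Its cluster 23, with 4.89% of 1655 cells above 0.1, had 6099 UMIs, a ribosomal percentage of 14.3 and 23.5% aneuploid cells. The cells of this label that were called aneuploid exceeded 0.1 in 29.5% of 1827 cells (median 6496 UMIs), and those called diploid in 14.6% of 4456 (median 1201 UMIs). The epithelial score, which the study used as a sign of malignant cells, was above 0 in 47.8% of cluster 15 and 33.8% of cluster 23, against 18.7% of macrophage cluster 18 and 96.2% of cancer cluster 11. Whether the label holds for these cells could not be settled without their genes, and they are called fibroblast-labelled here.

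In the classes with many positive cells these were richer in RNA than the rest, but not in all classes. In cancer cells the median was 18407 UMIs among positive cells and 11005 among the rest, a ratio of 1.67. The ratio was 1.64 in macrophages (5860.5 and 3583 UMIs), 1.72 in CD8 T cells and 1.16 in monocytes. Positive cells were the deeper in 16 of 16 tumors in cancer cells, macrophages and CD8 T cells, and in 14 of 16 in monocytes. The ratio was below 1 in neutrophils (0.908), erythroid cells (0.833), B cells (0.647) and basophils (0.901). In CD4 T cells it was 1.08, with positive cells deeper in 8 of 16 tumors. In fibroblast-labelled cells the pooled ratio of 1.88 rested on mt.11944 60% tumor 1, with a median of 966 UMIs in this class: without it the ratio was 1.14, and within tumors the positive cells were deeper in 10 of 16. The share above 0.1 rose with depth in macrophages, CD8 T cells, NK cells, T cells, DC and mast cells, and in cancer and endothelial cells from 8000 UMIs on. Between the bins under 2000 and 4000 to 8000 UMIs it went from 5.90% to 17.3% in NK cells. In T cells it went from 7.54% to 22.8%, and in DC from 2.41% to 8.47%. In cancer cells it was 5.96% under 2000 UMIs, 5.07% at 2000 to 4000 and 4.45% (4.09 to 4.83) at 4000 to 8000. It then rose to 14.2% (13.8 to 14.6) at 8000 to 16000 and 36.1% (35.4 to 36.8) at 16000 and over. In macrophages it rose from 4.76% under 2000 UMIs to 17.02% at 4000 to 8000 and 50.6% at 16000 and over, and in CD8 T cells from 17.8% under 2000 to 59.0% at 4000 to 8000.

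Depth alone did not raise the share in every class. Neutrophils stayed at 1.37% under 2000 UMIs, 0.952% at 2000 to 4000 and 1.09% at 4000 to 8000, with 1 of 92 cells in the last. Monocytes had 1.60%, 1.32% and 2.24% in the same bins and 5.02% of 1354 cells at 8000 to 16000. At 4000 to 8000 UMIs the share above 0.1 was 59.0% in CD8 T cells, 22.8% in T cells, 21.5% in fibroblast-labelled cells, 17.3% in NK cells, 17.02% in macrophages, 4.45% in cancer cells, 2.24% in monocytes and 1.09% in neutrophils. That bin holds unlike parts of the classes. It lies below the median of cancer cells (12165 UMIs) and above that of the other classes listed (1372 in neutrophils to 3833 in macrophages). The order of the classes there is therefore not a like-for-like ranking. Calls of S moved otherwise: in neutrophils they fell from 20.8% under 2000 UMIs to 13.04% at 4000 to 8000, and in cancer cells from 25.5% to 12.8%, before 28.4% at 16000 and over. Inside the cycling clusters depth differed less, with a ratio of median UMIs of positive to other cells of 1.02 in cancer cluster 14, 1.19 in cluster 11, 1.37 in macrophage cluster 18 and 1.49 in CD8 cluster 33. Cells could not be thinned to a common number of UMIs without gene counts, and the part of depth in the score was not tested. A dividing cell holds more RNA, so depth and cycling cannot be told apart here.

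**Figure D3:**
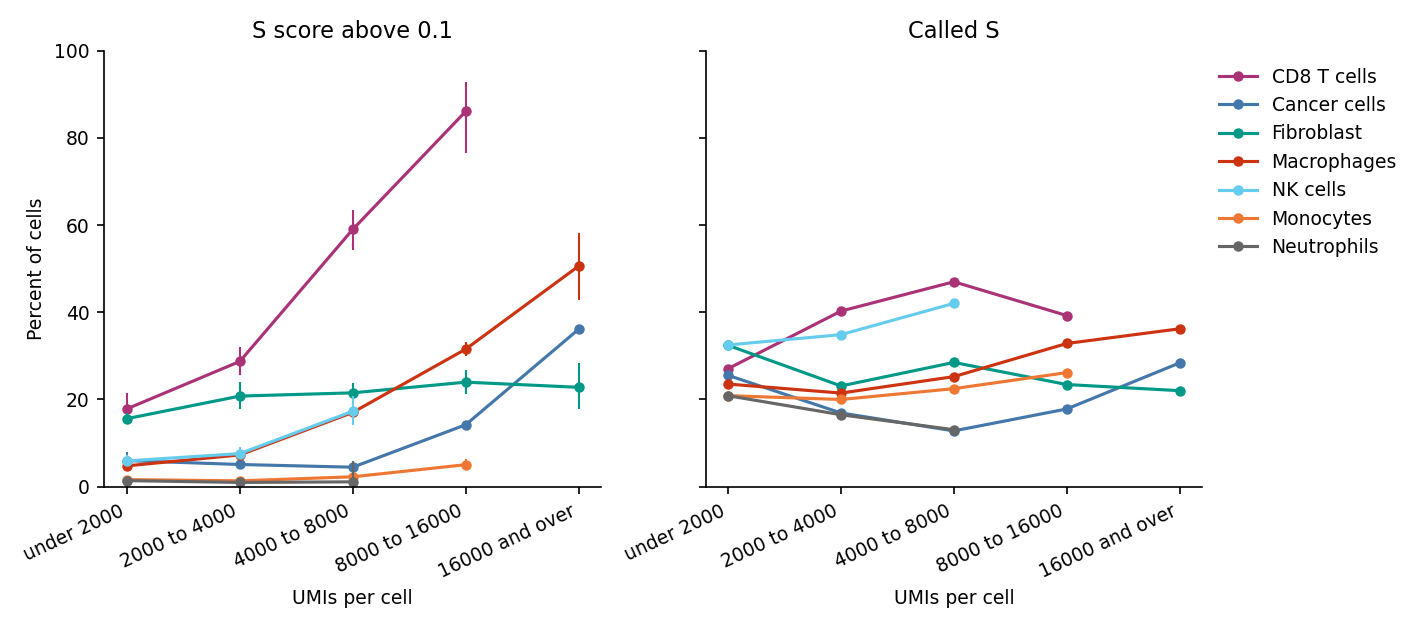
Percent of cells with an S score above 0.1 (left, with 95% Clopper-Pearson intervals) and percent called S (right) by UMIs per cell in 7 classes, for bins with at least 50 cells. The share above 0.1 rises with depth in CD8 T cells, macrophages and NK cells, and in cancer cells only from 8000 UMIs on. In neutrophils it stays between 0.952% and 1.37%, while calls of S start above 20% in every class shown.

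Other measures in the table moved with the score. In cancer cells the epithelial score had a median of 8.59 among positive cells and 5.41 among the rest, higher in 16 of 16 tumors, and at 8000 to 16000 UMIs 8.38 against 5.64, again higher in 16 of 16. The median ribosomal percentage was 25.6 against 24.1, higher in 16 of 16 tumors, but higher in 11 at 8000 to 16000 UMIs and in 7 at 16000 UMIs and over, where the medians were 25.3 and 24.8. The percentage of UMIs from dissociation-related genes was lower in positive cancer cells in 15 of 16 tumors (medians 3.43 and 3.61) and in positive macrophages in 16 of 16 (2.88 and 3.46). The doublet score of positive macrophages was higher in 16 of 16 tumors (medians 0.0204 and 0.00325), but among macrophages of 4000 to 8000 UMIs the medians were 0.0243 and 0.0252, higher in 6 of 16. The part of doublets in the score was not tested.

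The level of the score differed between tumors. The mean S score over all cells of a tumor was near 0 in every tumor, from -0.00668 in WT 6 to 0.00246 in WT 7, whatever its share of positive cells. The median score of the monocytes, the largest class with few positive cells, ran from -0.0232 in mt.12436 60% tumor 2 to -0.0609 in mt.12436 80% tumor 1. It was lower in tumors with more positive cells (Pearson r = -0.899 and Spearman rho = -0.897 over 16 tumors), and so was the share of cells called S (r = -0.875 and rho = -0.879). Without the 2 tumors farthest from the median r was -0.855 and -0.826. Within the first and second batches (6 tumors each) r was -0.896 and -0.889 for the monocyte median, and -0.902 and -0.871 for the calls of S. These relations were chosen after the values were seen and are given without a test. Where the mean score of a tumor is near 0, more cells of high score leave a lower mean among the rest. The values set against each other here are therefore not independent. How much of the inverse relations this makes up was not tested. Whether the threshold of 0.1 marks the same expression in every tumor was not tested.

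**Figure D4:**
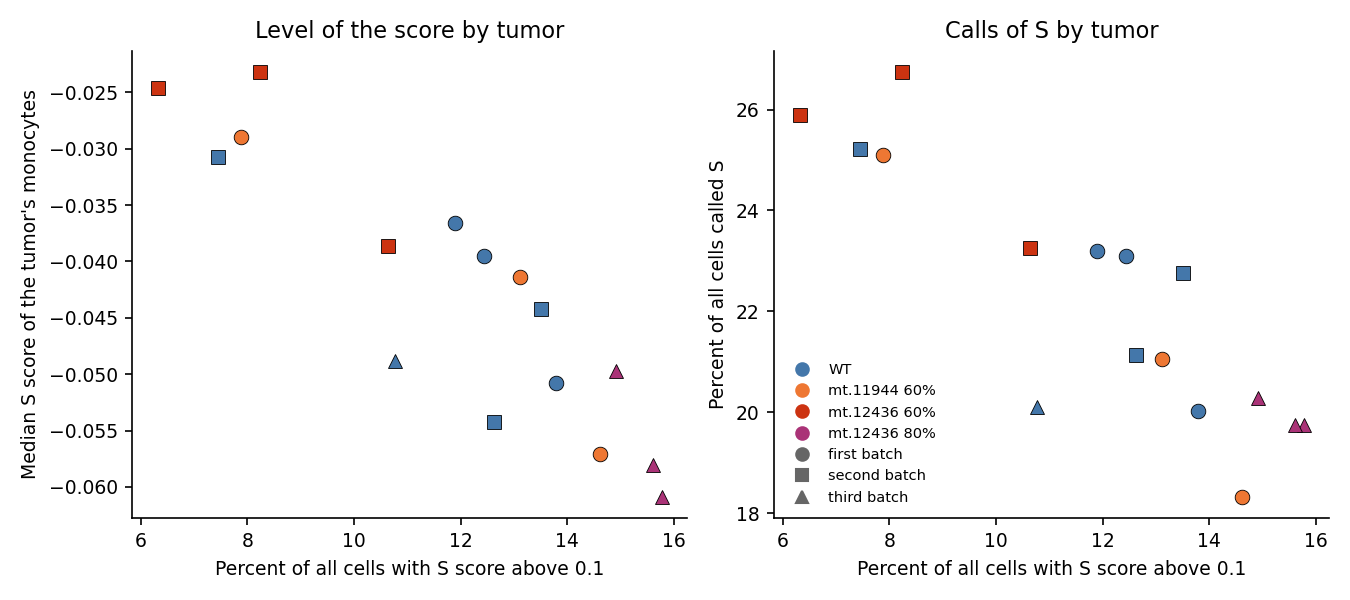
Each point is 1 of 16 tumors, with the percent of its cells above 0.1 on the x axis and on the y axis the median S score of its monocytes (left) or the percent of its cells called S (right); color marks the group and shape the batch. Both fall as the share above 0.1 rises, with r = -0.899 and -0.875.

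Among WT tumors the share of all cells above 0.1 was 13.8%, 11.9%, 12.4%, 12.6%, 7.44%, 10.8% and 13.5% in tumors 1 to 7. It was 7.88%, 13.1% and 14.6% in mt.11944 60% tumors 1 to 3, and 6.32%, 8.23% and 10.6% in mt.12436 60% tumors 1 to 3. In mt.12436 80% tumors 1 to 3 it was 15.8%, 14.9% and 15.6%, above every WT tumor. The 60% tumors overlapped WT, and mt.12436 60% tumor 1 lay below WT 5, the lowest control.

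In cancer cells the share was 20.9%, 21.0%, 18.1%, 19.0%, 12.2%, 18.1% and 26.0% in WT tumors 1 to 7. It was 6.80%, 19.9% and 19.8% in the mt.11944 60% tumors, 8.01%, 14.2% and 21.9% in the mt.12436 60% tumors, and 24.7%, 20.4% and 21.5% in the mt.12436 80% tumors. All 3 mutant groups overlapped WT. The tumors differed mainly in how many cancer cells lay in clusters 11, 14, 16 and 27, from 10.6% in mt.11944 60% tumor 1 to 37.5% in mt.12436 80% tumor 1, while the share above 0.1 inside these clusters ran from 54.4% to 73.4%. The mt.11944 60% tumor 1 had the lowest share above 0.1 and the deepest cancer cells of all tumors, with a median of 23118.5 UMIs.

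In macrophages WT tumors 1 to 7 had 11.7%, 10.9%, 12.2%, 11.7%, 10.4%, 14.9% and 11.8% above 0.1. The mt.11944 60% tumors had 15.9%, 13.8% and 12.7%, the mt.12436 60% tumors 7.07%, 13.3% and 12.3%, and the mt.12436 80% tumors 13.5%, 18.5% and 18.3%. The WT tumors were close together apart from WT 6, the control of the third batch. In fibroblast-labelled cells WT tumors 1 to 7 had 22.0%, 16.6%, 15.3%, 25.2%, 31.3%, 26.97% and 35.1%. The mt.11944 60% tumors had 12.9%, 16.3% and 18.4%, the mt.12436 60% tumors 22.6%, 15.5% and 16.8%, and the mt.12436 80% tumors 21.6%, 20.7% and 24.5%. WT 5 and WT 7 were the highest there, and the mutant tumors lay in the lower part of the WT range or below it.

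**Figure D5:**
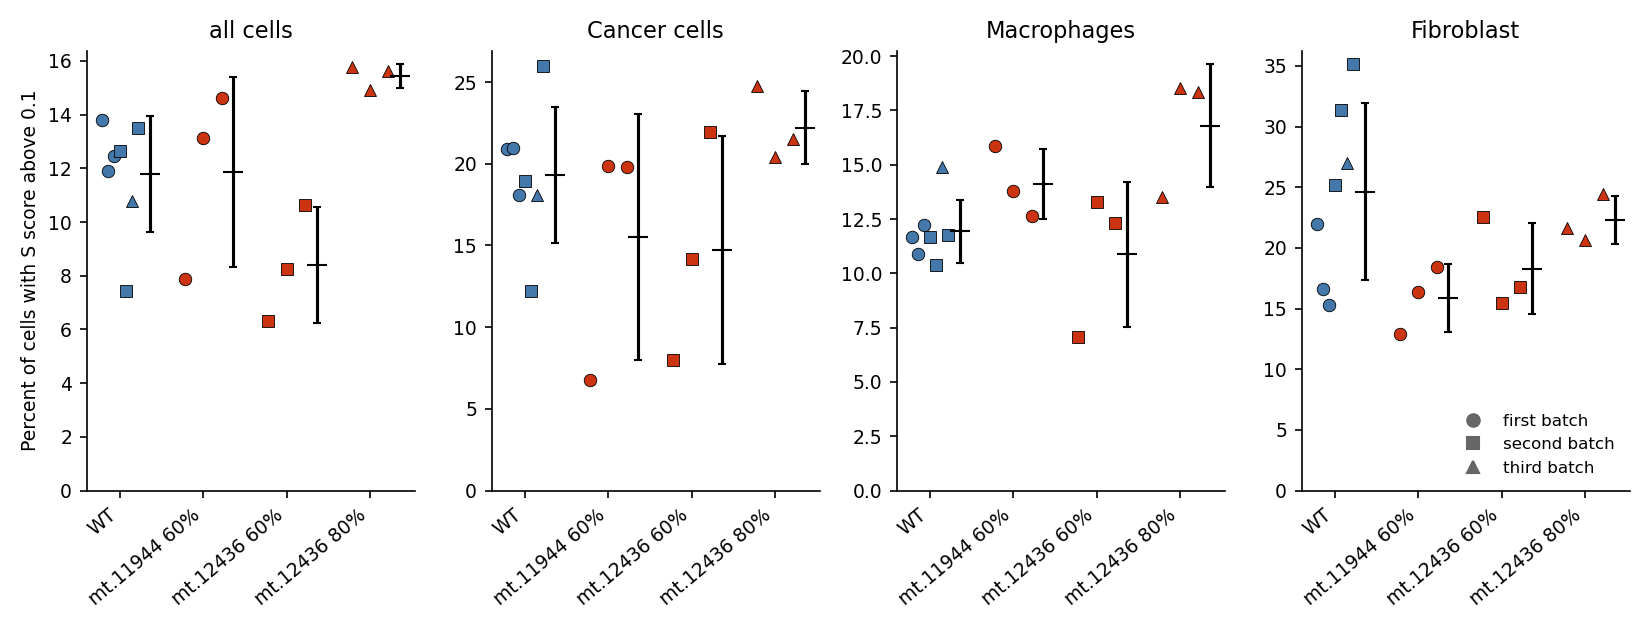
Percent of cells with an S score above 0.1 in each tumor, for all cells and 3 classes, by group (blue, WT; red, mutant) and batch (shape), with the mean and SD of each group beside it. The mt.12436 80% tumors lie between 14.9% and 15.8% over all cells, above the 7 WT tumors, and the groups overlap in each of the 3 classes.

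The other classes also varied between tumors. CD8 T cells ran from 21.2% in WT 3 to 50% in WT 2, which held 26 such cells. NK cells ran from 6.00% to 22.5%, both in WT tumors, and CD4 T cells from 2.00% to 9.52%. DC ran from 0 of 125 cells in WT 2, which allows a share of up to 2.40%, to 11.0% in mt.12436 80% tumor 1. Monocytes, with at least 1082 cells in every tumor, ran from 0.640% to 3.06%. Neutrophils ran from 0 of 183 cells in mt.11944 60% tumor 2, which allows up to 1.64%, to 2.36%.

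Groups were compared over tumors with exact two-sided permutation tests, in the 9 classes of which each tumor held 20 cells or more, with Benjamini-Hochberg adjustment over these 9, and over all cells apart. Between all mutant tumors and WT, 0 classes passed an adjusted p of 0.05 (0% of those tested), and 0 an unadjusted p of 0.05. Over all cells the share above 0.1 was 11.9% ± 3.70 (SD, n = 9) in mutant and 11.8% ± 2.16 (SD, n = 7) in WT tumors, a difference of 0.117 percentage points (95% interval from the inverted test -3.31 to 3.54, exact permutation p = 0.940). In cancer cells it was 17.5% ± 6.36 and 19.3% ± 4.15, a difference of -1.84 points (-7.90 to 4.13, exact permutation p = 0.519, adjusted p = 0.657), and within batches -2.71 (exact permutation p = 0.383). In macrophages the difference was 2.00 points (-1.03 to 4.91, exact permutation p = 0.178, adjusted p = 0.657), and within batches 1.23. Among macrophages of 4000 to 8000 UMIs it was 7.52 points (exact permutation p = 0.271), and without mt.12436 60% tumor 1 it was 2.86 (exact permutation p = 0.0188, adjusted p = 0.169).

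Fibroblast-labelled cells had the smallest p of that comparison. Their share above 0.1 was 18.8% ± 3.77 in mutant and 24.6% ± 7.30 in WT tumors (SD, n = 9 and 7), a difference of -5.82 points (-11.9 to 0.194, exact permutation p = 0.0575, adjusted p = 0.518). Compared within batches the difference was -6.66 points (exact permutation p = 0.0100, adjusted p = 0.09), which did not pass either. In the cells of this class not called aneuploid the difference was -2.97 points (exact permutation p = 0.340, adjusted p = 0.683). Pooled over tumors, the cells called aneuploid exceeded 0.1 more often and had more UMIs than those called diploid, as given above. The part of ploidy or depth in the difference between groups was not tested.

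At 60% heteroplasmy both edits together were set against WT, and 0 classes passed the adjusted threshold (0%), with 1 of 9 unadjusted (11.1%). That class was the fibroblast-labelled cells, with 17.1% ± 3.24 against 24.6% ± 7.30 (SD, n = 6 and 7), a difference of -7.54 points (-14.9 to -0.366, exact permutation p = 0.0420, adjusted p = 0.378) and of -7.16 within batches (exact permutation p = 0.0350, adjusted p = 0.315). With the replicate number as a block, which kept only WT tumors 1 to 3, the difference was -0.859 points (exact permutation p = 0.889). Those controls had 22.0%, 16.6% and 15.3% above 0.1, the lowest values of the WT tumors. This setting thus changes the controls as well as the blocking, and the numbers do not pair the tumors by the labels. In the cells not called aneuploid the difference was -4.35 points (exact permutation p = 0.238, adjusted p = 0.665). In cancer cells the share was 15.1% ± 6.51 against 19.3% ± 4.15, a difference of -4.21 points (-10.9 to 2.37, exact permutation p = 0.189, adjusted p = 0.566), and within batches -4.41. Over all cells the difference was -1.65 points (-5.00 to 1.71, exact permutation p = 0.293).

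At 80% heteroplasmy the share of all cells above 0.1 was 15.4% ± 0.456 (SD, n = 3) against 11.8% ± 2.16 in WT (SD, n = 7), 1.31-fold, a difference of 3.65 points (0.840 to 6.86, exact permutation p = 0.0333). Adjusted over the 5 comparisons of all cells its exact permutation p was 0.0893. Within the third batch, with a single WT tumor, the difference was 4.67 points and no p below 0.25 is possible. Without any 1 of the mt.12436 80% tumors the difference over all WT tumors was 3.48 to 3.91 points and its exact permutation p was 0.0556 to 0.0833. The mt.12436 80% tumors held more cancer cells than WT 6, 48.1% ± 1.58 of cells against 27.2%. Among WT tumors, WT 1 and WT 3 held as many, at 50.3% and 49.7%, and the others 18.9% to 35.7%. With the make-up of classes held at that of the series the difference from all WT tumors was 2.11 points (exact permutation p = 0.0833).

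By class 0 passed after adjustment at 80% (0%), with 1 of 9 unadjusted (11.1%). That class was the macrophages, with 16.8% ± 2.83 against 11.9% ± 1.44 (SD, n = 3 and 7), a difference of 4.86 points (2.19 to 7.44, exact permutation p = 0.0167, adjusted p = 0.15). Against WT 6 alone, the control of their batch, the difference was 1.91 points (exact permutation p = 1, of 4 splits). The macrophages of the mt.12436 80% tumors had medians of 2765 to 3396 UMIs and those of WT 1963.5 to 5707. Among macrophages of 4000 to 8000 UMIs alone the share above 0.1 was 24.9%, 41.8% and 39.6% in the mt.12436 80% tumors, against 14.3%, 10.3%, 41.9%, 4.93%, 3.65%, 11.3% and 16.2% in WT tumors 1 to 7. The difference there was 20.7 points (exact permutation p = 0.0417, adjusted p = 0.0833 over the classes with enough cells at that depth), and the highest WT tumor, WT 3, was the one with the shallowest macrophages. The part of depth in this difference was not tested. Cancer cells had 22.2% ± 2.24 against 19.3% ± 4.15, a difference of 2.91 points (-2.72 to 8.83, exact permutation p = 0.292, adjusted p = 0.731). Calls of S went the other way over all cells, with 19.9% ± 0.315 against 22.2% ± 1.89 (SD, n = 3 and 7), a difference of -2.29 points (exact permutation p = 0.0667), and the median S score of the monocytes was -0.0562 ± 0.00579 against -0.0436 ± 0.00841.

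Between 80% and 60% tumors the share of all cells above 0.1 was 15.4% ± 0.456 and 10.1% ± 3.24 (SD, n = 3 and 6), 1.52-fold, a difference of 5.31 points (0.301 to 9.46, exact permutation p = 0.0357). Adjusted over the 5 comparisons of all cells its exact permutation p was 0.0893, and with the make-up of classes held the difference was 3.93 points (exact permutation p = 0.0476). No class passed, adjusted (0%) or unadjusted (0 of 9). The difference was 7.12 points in cancer cells (-1.51 to 17.8, exact permutation p = 0.107, adjusted p = 0.241), 4.29 in macrophages (exact permutation p = 0.0952, adjusted p = 0.241; 19.8 among those of 4000 to 8000 UMIs, exact permutation p = 0.0357, adjusted p = 0.0714) and 5.18 in fibroblast-labelled cells (exact permutation p = 0.0714, adjusted p = 0.241). Without any 1 of the mt.12436 80% tumors, mt.11944 60% tumor 1 or mt.12436 60% tumors 1 and 2, the difference over all cells was 4.54 to 5.56 points and its exact permutation p was 0.0536 to 0.107. These groups share no batch, so heteroplasmy and batch cannot be told apart.

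Between mt.12436 60% and mt.11944 60%, which also share no batch, 3 against 3 tumors allow no p below 0.1, and 0 classes passed (0%, and 0 unadjusted). Over all cells the share above 0.1 was 8.40% ± 2.16 and 11.9% ± 3.54, in cancer cells 14.7% ± 6.98 and 15.5% ± 7.53, in macrophages 10.9% ± 3.34 and 14.1% ± 1.63 and in CD8 T cells 43.0% ± 6.02 and 34.4% ± 3.94 (SD, n = 3 and 3). Each edit was also set against the WT tumors of its own batch. In cancer cells the effects were -4.33 points for mt.12436 60% and -4.49 for mt.11944 60% (exact permutation p of their difference = 0.985), and in fibroblast-labelled cells -12.3 and -2.06 (exact permutation p = 0.155, adjusted p = 0.596). None of the 9 classes passed in this test of the difference between edits.

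Of 3 planned relations across the 16 tumors, the share above 0.1 in cancer cells rose with their share of G2M scores above 0.1 (r = 0.973, rho = 0.924, permutation p = 1e-05 for both, adjusted p = 3e-05). Without the 2 tumors farthest from the median it was 0.937, and within the first and second batches 0.977 and 0.991 (6 tumors each, exact permutation p = 0.0583 and 0.00139). Both shares counted the same cancer cells, of which 12.2% exceeded 0.1 for both scores, 18.9% for S and 18.6% for G2M. Shares that overlap in this way rise together in part by construction, so these p-values do not test a link between separate measures. With the median UMIs of the cancer cells r was -0.448 (rho = -0.324, permutation p = 0.0810 and 0.221, adjusted p = 0.122), and -0.253 without the 2 farthest tumors, of which the deep mt.11944 60% tumor 1 was one. The relation of deeper cells with higher scores inside a tumor was thus not seen between tumors. With the share above 0.1 in macrophages r was 0.229 (rho = 0.124, permutation p = 0.392 and 0.648), and within batches it was -0.862 in the first and 0.644 in the second, and the sign was not the same in the batches.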

How the data were processed

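Tumor fragments of 16 mice were profiled by droplet single-cell RNA sequencing. Per the authors' methods, reads were aligned and UMI counts per cell made with Cell Ranger 7.0.1 on GRCm39, and Seurat 4.2.0 in R 4.2.1 kept cells with over 500 genes, under 37000 UMIs and under 5% mitochondrial UMIs. Libraries were joined with Harmony 0.1.0, classes named with clustifyr 1.8.0 and ploidy called with CopyKAT 1.1.0. The deposited percent values give the share of a cell's UMIs from mitochondrial, ribosomal or dissociation-related genes. The S, G2M, doublet and epithelial score of each cell was used as deposited by the authors, and the gene lists and settings behind the S and G2M scores are not given in the sources used here. The table holds only cells not called doublets.

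Tumors were grouped by their labels. Shares of cells per tumor and exact two-sided permutation tests over tumors were computed with Python 3.11.15, pandas 2.3.3 and numpy 2.4.6. Intervals of shares were made with scipy 1.17.1 and figures with matplotlib 3.10.9. Benjamini-Hochberg adjustment ran over the 9 tested classes. The procedure was checked on simulated data. Each class, each cancer cluster, the cluster with the highest share above 0.1 in other classes, and further clusters over 10% were named, as were the highest and lowest tumors. Other clusters named for contrast were chosen after their values were seen. The measures, lists and tests were chosen with earlier results of these data known. Alternatives were other thresholds, depth and gene minimums, ploidy-matched cells, doublet scores, batches, scales and single tumors left out. Added after seeing the data were scores aligned on monocytes, shared barcodes left out, class make-up held, macrophage shares by tumor at 4000 to 8000 UMIs, and fibroblast-labelled cells without the tumor that held the most. Nothing states that the tumors of a group are more than repeat injections of 1 line, so p-values measure the spread between tumors. Depth, at 591 to 36985 UMIs per cell, limits how finely a single cell can be scored.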

Additional observations from a re-analysis of the deposited data

Results flagged for a closer look

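Among the 7 WT tumors the share of macrophages with an S score above 0.1 was highest in WT 6, at 14.9%, apart from the next highest tumor at 12.2%. The gap made up 0.582 of the range of the group. Chance sets a tumor apart in this way in about 1 in 20 groups, and 10 groups were examined. WT 6 is the only control of the third batch.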

How the results depend on the processing

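Of 657 alternative values for 27 results, 597 kept the direction and the side of the threshold, and the cause of the other changes was not tested. Apart from 80% against WT and 80% against 60% over all cells, no result passed in the main setting. Elsewhere, keeping the side thus means only that neither value passed. For 80% against WT over all cells 19 of 27 alternatives stayed the same, and for 80% against 60% 14 of 24. Differences are in percentage points. Counting cells called S reversed the difference over all cells for 60% against WT (1.17), 80% against WT (-2.29), 80% against 60% (-3.46) and mt.12436 against mt.11944 at 60% (3.80), in macrophages for the last 3 of these (-1.40, -3.80 and 3.31), in cancer cells for 80% against WT (-0.311) and between edits (1.68), and in fibroblast-labelled cells between edits (-1.31). In cells of 4000 to 8000 UMIs the difference was 0.0787 over all cells for 60% against WT, -2.55 in cancer cells for 80% against WT, -0.745 in cancer and -4.42 in fibroblast-labelled cells for 80% against 60%, 4.70 over all cells for that comparison (exact permutation p = 0.119), 2.91 over all and 2.69 in cancer cells between edits, and in macrophages 7.52 for all mutant tumors, 20.7 for 80% against WT and 19.8 for 80% against 60%. Over all cells, all mutant against WT (0.117) turned to -0.0664 with at least 2000 UMIs, -0.254 with at least 1000 genes, -0.0366 degrees on the arcsine scale, -0.522 within batches, -0.620 within batches with scores aligned on monocytes, -0.512 with make-up held, and ran from -0.606 to 0.815 without single tumors. Group medians gave 0.906 in cancer cells for all mutant tumors and 6.18 over all cells for 80% against 60% (exact permutation p = 0.119), and without the highest 5% of doublet scores the latter was 4.94 (exact permutation p = 0.0595). Macrophages at 60% against WT gave -0.0742 with at least 2000 UMIs and -0.104 to 1.66 without single tumors, the lowest without mt.11944 60% tumor 1.

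Over all cells, 80% against WT no longer passed within batches (4.67), aligned within batches (5.63) or with make-up held (2.11), and ran from 2.93 to 3.99 without single tumors. Both settings within batches allow no p below 0.25, so they could not pass at any difference. For 80% against 60% that range was 4.54 to 6.20. Fibroblast-labelled cells at 80% against WT gave 0.341 where cells also had to be called S and 0.352 with scores aligned on monocytes. Aligned on monocytes, 3 of the 9 tested classes passed for 80% against 60%. These were fibroblast-labelled cells (a difference of 8.73), monocytes and neutrophils, each with an exact permutation adjusted p of 0.0357. The alignment adds more to every cell of a tumor the lower its monocyte median. That median averaged -0.0562 in mt.12436 80%, -0.0425 in mt.11944 60% and -0.0288 in mt.12436 60% tumors. It thus shifts the 80% tumors up, and these passes cannot be told apart from that shift. In cancer cells the difference between edits was 0.334 above 0.2, 0.0311 where cells also had to be called S, and -5.13 to 2.57 without single tumors. The replicate block kept only WT tumors 1 to 3, all of the first batch, so its controls differ from those of the main setting. With it the difference over all cells was -0.811 for all mutant tumors and 2.73 for 80% against WT. The exact permutation p of the latter was 0.25, the lowest possible there. In fibroblast-labelled cells the difference was 0.866 for all mutant tumors, -0.859 for 60% and 4.32 for 80% against WT. Tumors share only a number, since 5 of 18 same-numbered pairs deviated together with r over 0.1 (-0.709 to 0.728), and the block moved no count of classes called.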
